A study of Mus musculus with 6 samples.

Results

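The 10 genes described here belong to microglia and macrophages and were measured in sorted spinal cord cells of mouse embryos at E12.5. They were the receptor genes Cx3cr1 and Csf1r, the complement genes C1qa, C1qb and C1qc, the adaptor genes Tyrobp and Fcer1g, the mannose receptor gene Mrc1, Aif1 and Ptprc. All 10 had a probe whose RefSeq accession matched them (13 probes in all), of 19897 genes matched on the array, and all 10 were among the 14917 genes tested. The genes were selected on their differences between genotype labels in the GFP-on motor neurons, with those in GFP-off cells also known, so differences between genotype labels are described here and not tested.

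Microglia are the resident macrophages of the central nervous system; they arise from yolk sac progenitors and enter the neural tube in mid-gestation. They survive through the receptor encoded by Csf1r and sense neurons through the fractalkine receptor encoded by Cx3cr1. Tyrobp and Fcer1g encode small signalling adaptors that pair with surface receptors, and the C1q genes encode the subunits of the molecule that starts the classical complement cascade. Mrc1 is a marker of perivascular, meningeal and other tissue macrophages rather than of microglia in the parenchyma.

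All embryos carried the reporter Hb9::GFP, in which a motor neuron promoter drives GFP, on a background labelled either mir-17~92 -/- (KO, loss of a microRNA cluster) or WT. Sorted GFP-on cells, labelled as motor neurons, gave 2 arrays for each genotype; GFP-off cells, the rest of the dissociated cord, gave 1 array for each. Sex is given as N/D, no other treatment was named, and the labels do not say whether embryos were pooled or whether replicates came from separate embryos, so their spread may be technical. The first GFP-on replicate and the GFP-off array of a genotype label share a tag in the descriptions, so these fractions may come from the same embryos.

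Levels are given as log2 processed signal minus the 75th percentile of the array, and differences are on the same log2 scale. That percentile was 59.9 and 506 on the KO GFP-on arrays, 48.5 and 64.5 on the WT GFP-on arrays, and 549.9 and 340.5 on the KO and WT GFP-off arrays. On the 3 dimmer arrays 41.0% to 44.0% of spots passed the scanner software's test for signal well above background, against 58.9% to 62.3% on the brighter ones. The WT GFP-on arrays stood apart: replicate 2 correlated at 0.71 to 0.798 with all arrays but replicate 1. The KO GFP-on pair sat in slide row 1, all 4 remaining arrays in row 2, so genotype label and row cannot be told apart in GFP-on cells, whereas both GFP-off arrays lay in row 2.

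Promoter sequences from RefSeq (GRCm38.p6, 250 bases before to 50 after the start) are shown for members that were higher on all KO than on all WT arrays, the group the results turn on. Capitals mark matches on either strand to GAGGAA, the core of the box bound by the macrophage factor PU.1, or to GGAAGT, an ETS-family core; the motifs can overlap. Sequences run 5′ to 3′ on the gene's strand.
Mrc1, chr2:14229164-14229463, strand +: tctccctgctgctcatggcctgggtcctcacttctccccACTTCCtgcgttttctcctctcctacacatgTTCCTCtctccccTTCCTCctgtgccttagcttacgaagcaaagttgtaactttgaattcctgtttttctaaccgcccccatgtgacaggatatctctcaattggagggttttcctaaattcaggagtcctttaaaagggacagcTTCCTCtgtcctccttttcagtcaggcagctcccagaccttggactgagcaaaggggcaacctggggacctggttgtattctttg
C1qc, chr4:136892865-136893164, strand -: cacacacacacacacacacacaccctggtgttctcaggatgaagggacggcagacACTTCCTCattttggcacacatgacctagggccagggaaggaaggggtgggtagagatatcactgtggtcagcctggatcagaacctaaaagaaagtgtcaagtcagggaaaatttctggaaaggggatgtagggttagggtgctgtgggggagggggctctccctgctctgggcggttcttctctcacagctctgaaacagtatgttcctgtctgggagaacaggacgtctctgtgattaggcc
C1qb, chr4:136886151-136886450, strand -: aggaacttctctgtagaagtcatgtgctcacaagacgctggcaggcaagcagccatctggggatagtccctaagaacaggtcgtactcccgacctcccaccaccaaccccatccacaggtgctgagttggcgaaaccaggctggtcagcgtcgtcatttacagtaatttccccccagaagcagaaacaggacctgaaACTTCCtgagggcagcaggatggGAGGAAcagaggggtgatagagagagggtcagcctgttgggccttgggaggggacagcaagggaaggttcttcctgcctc
Fcer1g, chr1:171234300-171234599, strand -: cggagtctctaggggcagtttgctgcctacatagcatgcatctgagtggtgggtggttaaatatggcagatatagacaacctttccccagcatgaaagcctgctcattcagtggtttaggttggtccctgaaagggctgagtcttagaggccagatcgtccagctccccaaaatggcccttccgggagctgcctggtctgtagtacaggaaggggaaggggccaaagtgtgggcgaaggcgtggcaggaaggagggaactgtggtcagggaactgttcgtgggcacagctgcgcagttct
Cx3cr1, chr9:120068247-120068546, strand -: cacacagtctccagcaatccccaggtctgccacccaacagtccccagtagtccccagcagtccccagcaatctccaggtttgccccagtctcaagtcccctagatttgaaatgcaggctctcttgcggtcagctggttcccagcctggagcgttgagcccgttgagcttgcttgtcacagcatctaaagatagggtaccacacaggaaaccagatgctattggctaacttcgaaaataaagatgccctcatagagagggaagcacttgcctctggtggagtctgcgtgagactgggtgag
C1qb, C1qc and C1qa are direct neighbours in that order on chromosome 4. The Mrc1 window held 3 matches to GAGGAA and 1 to GGAAGT, and the C1qb and C1qc windows held 1 of each, overlapping in C1qc. The Fcer1g and Cx3cr1 windows held neither. Of 32851 promoters of this length, 28.3% held GAGGAA, 23.8% held GGAAGT and 43.4% held either, so a match is common. Tyrobp, C1qa and Csf1r are not shown.

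The KO-labelled arrays carried more signal for most of these genes, in both sorted fractions, and the figure of probe levels by array shows each value. In GFP-on cells, 8 of the 10 genes were higher on both KO arrays than on both WT arrays on the probe that stands for the gene, and none was lower on both. Over all genes tested, 41.3% were higher and 26% lower without overlap in that comparison, which the choice of genes used. The median difference was 1.88 over the 10 genes and 0.34 over all genes. Fewer cells of a type and less RNA per cell cannot be told apart in these bulk samples.

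**Figure D1:**
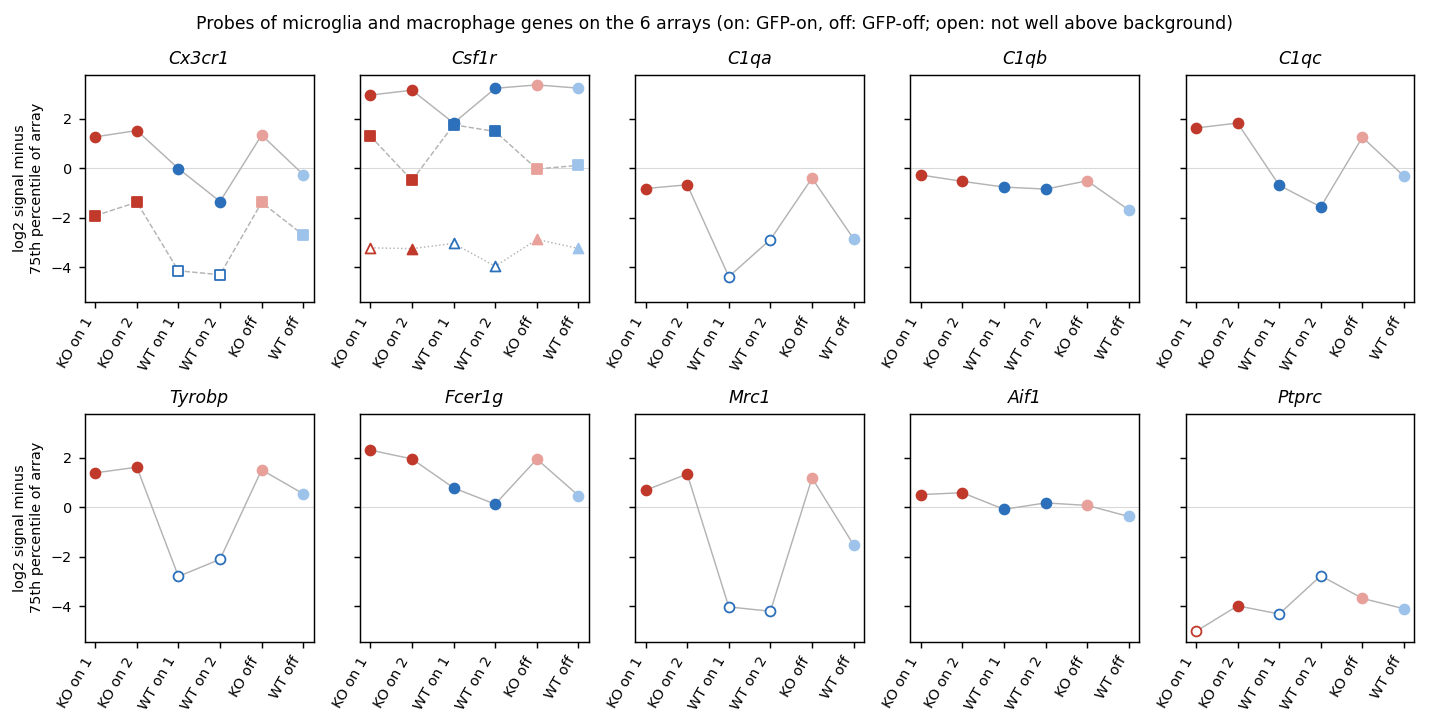
Each panel shows 1 gene, with log2 signal minus the array's 75th percentile on the vertical axis and the 6 arrays on the horizontal axis; marker shapes and line styles separate probes of a gene, and open markers are not well above background. For C1qc, Fcer1g, Tyrobp, Mrc1, C1qa and Cx3cr1 the 3 KO arrays (red shades) sit above the 3 WT arrays (blue shades), whereas the 3 Csf1r probes follow different courses.

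Among the receptors, Cx3cr1 gave levels of 1.26 and 1.52 on the KO GFP-on arrays, -0.020 and -1.35 on the WT GFP-on arrays, 1.34 on the KO GFP-off array and -0.26 on the WT GFP-off array. Its dimmer probe gave -1.92 and -1.38, -4.15 and -4.31 (both not well above background), -1.39 and -2.70 in the same order. On both probes the 3 KO arrays were above the 3 WT arrays. The difference in GFP-on cells was 2.08 on the brighter probe, and the dimmer probe was at least 1.47-fold higher. Such lower bounds set the mean of the bright group against the lowest signal called well above background on each dim array, or the probe's own signal where higher.

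Csf1r, whose product binds CSF1 and IL-34, did not follow Cx3cr1. Its brightest probe gave 2.95 and 3.15 on the KO GFP-on arrays, 1.82 and 3.23 on the WT GFP-on arrays, and 3.36 and 3.23 on the KO and WT GFP-off arrays. The groups overlapped, and WT GFP-on replicate 1 alone was low. The second probe gave 1.29 and -0.50, then 1.75 and 1.48, then -0.035 and 0.11, so here both WT GFP-on arrays were the higher ones. The third was dim, between -3.97 and -2.88, and well above background on 3 arrays. The differences of the 3 probes in GFP-on cells were thus of both signs, 0.53 and -1.22 on the brighter pair, and their places in the transcript are not known here.

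The complement genes differed in size but not in sign. C1qc, spotted 10 times per array, gave 1.62 and 1.82 on the KO GFP-on arrays, -0.69 and -1.57 on the WT GFP-on arrays, and 1.25 and -0.33 on the KO and WT GFP-off arrays. The SD over the 10 spots of an array was between 0.036 and 0.29, and all spots were well above background on every array. The difference of 2.85 in GFP-on cells was therefore far above the spot error, which says nothing about the spread between embryos.

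C1qa gave -0.83 and -0.67, then -4.39 and -2.89 (both not well above background), then -0.40 and -2.86, and was at least 2.74-fold higher on the KO GFP-on arrays. C1qb gave -0.28 and -0.54, then -0.77 and -0.85, then -0.52 and -1.69. Its groups did not overlap in GFP-on cells, but the difference was small (0.40), and the larger gap for C1qb was in GFP-off cells (1.18).

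The adaptor genes were both higher on the KO arrays. Tyrobp, encoding DAP12, the partner of TREM2, gave 1.40 and 1.63 on the KO GFP-on arrays, -2.79 and -2.10 on the WT GFP-on arrays, neither well above background, and 1.52 and 0.55 on the KO and WT GFP-off arrays. It was at least 12.2-fold higher on the KO GFP-on arrays, while the GFP-off pair differed by 0.97. Fcer1g, encoding the common gamma chain of Fc receptors, was well above background everywhere, at 2.31 and 1.96, then 0.79 and 0.13, then 1.95 and 0.48. Its differences in the 2 fractions were 1.68 and 1.47.

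Mrc1 gave 0.69 and 1.35 on the KO GFP-on arrays and -4.02 and -4.20 on the WT GFP-on arrays, neither of which was well above background. The KO GFP-off array gave 1.19 and the WT GFP-off array -1.51. Mrc1 was at least 9.35-fold higher on the KO GFP-on arrays and showed the largest difference of the 10 genes in GFP-off cells (2.70); in GFP-on cells Tyrobp had the higher lower bound.

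The remaining pair showed little. Aif1, encoding the actin-binding protein IBA1 that is widely used to stain microglia, gave 0.52 and 0.59, then -0.078 and 0.18, then 0.080 and -0.37; its groups did not overlap in GFP-on cells, with a difference of 0.50. Ptprc, encoding CD45 of leukocytes, was dim on all 6 arrays (-5.01 to -2.76) and well above background on 3 of them. Its GFP-on groups overlapped, with a difference of -0.96. Among the GFP-on arrays only KO replicate 2 was well above background, so the pan-leukocyte marker was not well measured there. Both GFP-off arrays were well above background, though dim, and differed by 0.42 (-0.17 with normexp). What this says of the cells that carried the other transcripts was not tested.

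With background correction by normexp, the differences in GFP-on cells kept their sign and were smaller in size for 9 of the 10 genes: 1.21 for Cx3cr1, 1.80 for C1qc, 1.90 for Tyrobp, 1.43 for Fcer1g, 1.58 for Mrc1, 0.53 for C1qa, 0.028 for C1qb, 0.41 for Aif1 and -0.91 for Ptprc. Csf1r gave a larger one (0.89). Without WT GFP-on replicate 2, the median over the 10 genes was 1.38, against 0.09 over all genes.

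The GFP-off pair gave the same contrast on arrays of similar brightness that did not enter the GFP-on comparison, 1 array against 1 and so with no replicate check and no test. Its values were known when the genes were chosen, so its counts are a description only. All 13 probes were well above background on both arrays. Of the 10 genes, 6 were more than 2-fold higher on the KO array and none was more than 2-fold lower. Over all genes tested, 3.22% were more than 2-fold higher and 3.32% lower, and among genes well above background on both GFP-off arrays 2.16% were higher. The differences were 2.70 for Mrc1, 2.45 for C1qa, 1.60 for Cx3cr1 (1.31 on its dimmer probe), 1.58 for C1qc, 1.47 for Fcer1g and 1.18 for C1qb.

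Tyrobp (0.97), Aif1 (0.45), Ptprc (0.42) and Csf1r (0.13, with -0.14 and 0.36 on its other probes) stayed under 2-fold. With normexp, C1qb (0.80) also fell short of 2-fold and Ptprc turned to -0.17. The median was 1.32 over the 10 genes and 0.09 over all genes. Of the 10, 6 were both without overlap in GFP-on cells and more than 2-fold higher in GFP-off cells (1.76% of all genes), and 7 had all 3 KO arrays above all 3 WT arrays (15.9% of all genes). The GFP-on part of these counts entered the choice of genes, and the GFP-off part was known at that choice.

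**Figure D2:**
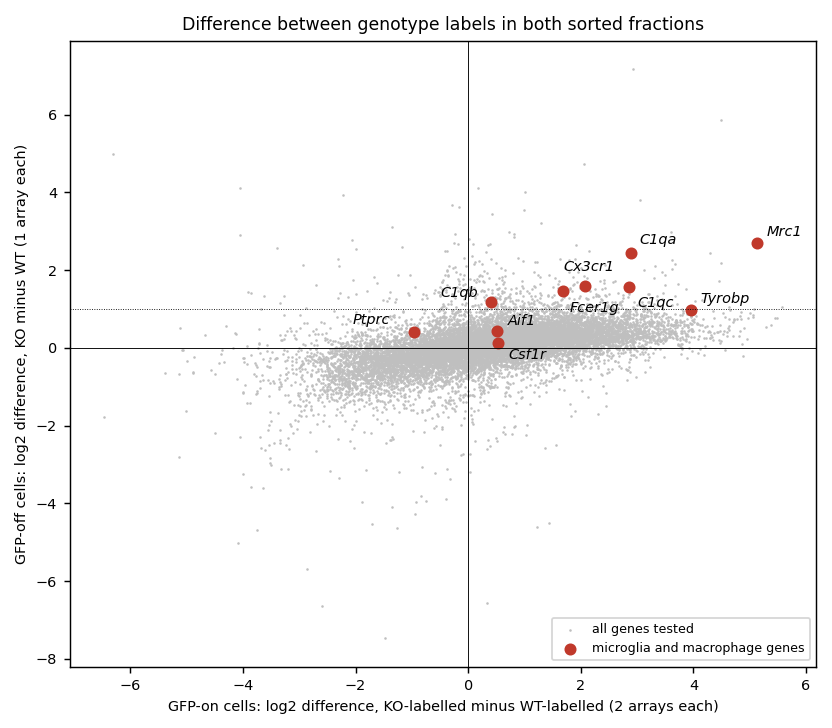
Each point is 1 gene tested; the horizontal axis is the log2 difference between KO and WT labels in GFP-on cells (2 arrays each) and the vertical axis the same difference in GFP-off cells (1 array each), with a dotted line at 2-fold. Mrc1, C1qa, Cx3cr1, C1qc, Fcer1g and C1qb (red) lie above the dotted line, Tyrobp just below it, and Csf1r, Aif1 and Ptprc within the cloud of all genes (grey).

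Some of these values differed between bright and dim arrays. Between the KO GFP-on replicates, 8 of the 10 genes were lower on the dimmer array, by little for C1qc (1.62 against 1.82) and by more for Mrc1 (0.69 against 1.35) and Ptprc (-5.01 against -3.98), whereas Fcer1g (2.31 against 1.96) and C1qb were higher there. On the bright WT GFP-off array, 5 of the 10 genes (Csf1r, C1qa, C1qc, Tyrobp and Mrc1) were above both dim WT GFP-on arrays. Mrc1 gave -1.51 against -4.02 and -4.20, whereas Csf1r was barely above replicate 2 (3.231 against 3.225). Brightness and sorted fraction cannot be told apart in that comparison. The part of brightness in the GFP-on result was not tested.

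Markers of other cell types in the GFP-off pair were mixed. Summed over the measured genes of a list, the log2 level on the KO and WT GFP-off arrays was 4.74 and 3.95 for the 10 genes, 10.4 and 10.6 for 10 of 13 red cell genes, 5.18 and 5.84 for 12 endothelial genes, 10.2 and 9.70 for 12 mesenchyme genes, and 5.54 and 5.45 for 11 of 22 genes of other leukocytes. On the GFP-on arrays these sums ran from 7.95 to 9.18 (KO) and 8.20 to 8.37 (WT) for red cells, 4.38 to 5.14 and 5.30 to 7.03 for endothelium, 9.05 to 9.16 and 8.41 to 8.94 for mesenchyme, and 4.0 to 4.07 and 5.49 to 6.32 for other leukocytes. The endothelial sum was carried on WT GFP-on replicate 2 by Kdr (6.83). Of the 12 endothelial genes, 5 were more than 2-fold lower and none higher on the KO GFP-off array, against 3.32% of all genes lower. They are named here after their values were seen: Tie1 (-1.19), Esam (-1.02), Cldn5 (-1.16), Emcn (-1.01), Egfl7 (-1.07). In GFP-on cells 4 of the 12 were higher and 4 lower without overlap on the KO arrays, against 41.3% and 26% of all genes. Cdh5 (3.78, at least 6.36-fold), Eng (2.63, at least 3.21-fold), Cldn5 (2.45, with 5 of 6 arrays well above background) and Esam (0.70) were among the higher ones and Kdr (-2.54) among the lower ones. The B cell genes Cd79a and Ms4a1 were not well above background on enough arrays to be tested.

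Other cell type lists also held genes that were higher on the KO GFP-on arrays. Among all genes, 41.3% were higher and 26% lower there without overlap, so several of these counts are near the share of all genes. The all-gene medians were 0.34 in GFP-on and 0.09 in GFP-off cells. In GFP-off cells 3.22% of all genes were more than 2-fold higher. Of 12 measured neural progenitor genes, 6 were higher and 2 lower without overlap, with a median of 1.26; Fabp7 gave 2.98, Dll1 2.56 and Sox2 2.17, the last pair with 5 of 6 arrays well above background, and the median in GFP-off cells was -0.078. Of 12 mesenchyme genes, 7 were higher and 1 lower, among them Postn (2.52). Of 12 measured motor neuron genes, 5 were higher and 2 lower, including Prph (4.44) and Isl1 (2.57), and of 6 neural crest genes, 3 were higher and 1 lower, with medians of 0.66 in GFP-on and 0.0062 in GFP-off cells. Of 10 measured red cell genes, 5 were higher and 3 lower in GFP-on cells, with Hba-x (1.95), Hba-a1 (1.62), Hbb-b2 (1.57) and Hbb-bh1 (1.29) higher; Hbb-bh1 (1.36) and Hba-x (1.17) were also more than 2-fold higher in GFP-off cells, and none was lower by that much. The part of these cell types in the result was not tested.

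A comparison between the sorted fractions asks whether transcripts of these non-neuronal cells were depleted from the sorted motor neurons. None of the 10 genes passed in limma (4 arrays against 2, additive model with genotype label), against 2.29% of all genes (1.54% higher and 0.751% lower in GFP-on cells). In that fit 2 of the 10 genes had an unadjusted p under 0.05. So did 3291 of the 14917 genes tested, so a count of 2 is near the share of all genes. The median difference, GFP-on minus GFP-off, was -0.17 over the 10 genes and -0.21 over all genes. In the same fit, 7 of 10 red cell genes fell, among them Hbb-b2 (-4.50) and Hba-x (-3.18), and 5 of 12 motor neuron genes rose, including Lhx4 (3.88) and Chat of acetylcholine synthesis (3.17). The neural crest genes Foxd3 (4.29) and Sox10 (3.93) also rose, the 2 of 6 of that list that passed (adjusted p = 0.00868 and 0.0158 in limma). On the KO-labelled arrays, GFP-on minus GFP-off ran from -0.82 for Ptprc to 0.48 for Aif1.

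The pair with an unadjusted p under 0.05 was Tyrobp, at -1.50 ± 0.65 (SE; adjusted p = 0.222 in limma, 0.118 to 0.373 over the alternatives), and Mrc1, at -1.38 ± 0.58 (adjusted p = 0.211 in limma, 0.0918 to 0.940 over the alternatives). For Tyrobp and Mrc1 in turn, GFP-on minus GFP-off was -2.99 and -2.60 on the WT-labelled arrays, whose GFP-on probes were not well above background, and -0.0085 and -0.17 on the KO-labelled ones; whether the labels differ in this was not tested. The other genes gave 95% intervals that held 0: -1.28 to 0.92 for Cx3cr1, -1.62 to 0.60 for Csf1r, -1.70 to 0.58 for C1qa, -0.44 to 1.43 for C1qb, -1.26 to 0.93 for C1qc, -0.87 to 1.03 for Fcer1g, -0.44 to 1.34 for Aif1 and -1.47 to 1.22 for Ptprc. The intervals of Cx3cr1, Csf1r, C1qa, C1qc and Ptprc include values more than 2-fold lower in GFP-on cells, so they do not show equal levels. With normexp, Mrc1 gave 0.045.

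**Figure D3:**
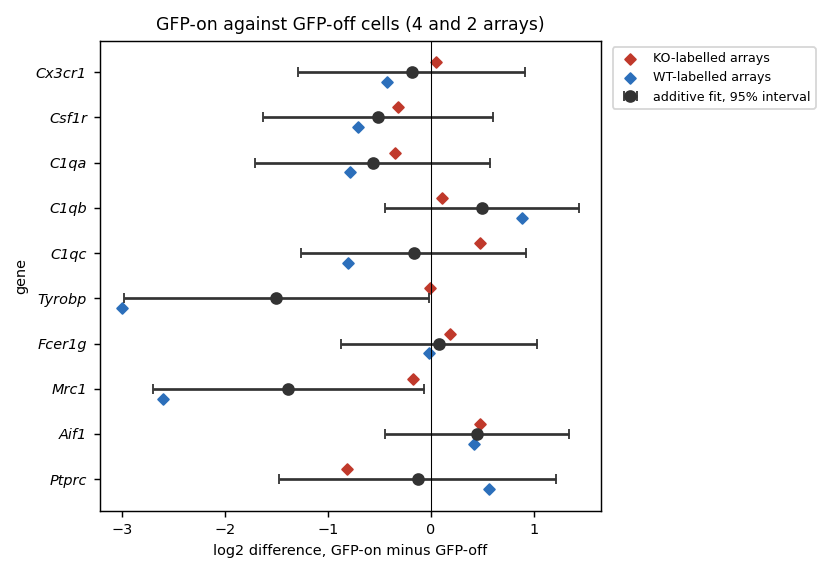
The horizontal axis is the log2 difference, GFP-on minus GFP-off, for each of the 10 genes; black points with bars are the additive fit over 4 and 2 arrays with its 95% interval, and diamonds are the differences within the KO (red) and WT (blue) labels. For Tyrobp and Mrc1 the red diamonds lie near 0 and the blue ones at -2.99 and -2.60.

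Genes related to the 10 were counted from lists of microglia, macrophage and immune signalling genes, to be read against the 41.3% of all genes higher and 26% lower without overlap on the KO GFP-on arrays. In the GFP-off pair 3.22% of all genes were more than 2-fold higher and 3.32% lower. Among genes well above background on both GFP-off arrays, 2.16% were higher by that much. Among 15 measured genes of border and tissue macrophages, 10 were higher without overlap on the KO GFP-on arrays and none was lower. More than 2-fold higher in the GFP-off pair were 6, of which 5 were well above background on both arrays, and 1 was lower (Cbr2, -1.39, picked after its value was seen). F13a1, encoding a coagulation factor subunit made by macrophages, gave differences of 4.30 in GFP-on cells (at least 7.36-fold) and 2.43 in GFP-off cells. The hyaluronan receptor gene Lyve1 gave 3.67 (at least 2.92-fold) and 2.15, and the receptor kinase gene Axl 3.68, with WT GFP-on replicate 2 at background, and 0.51. The folate receptor gene Folr2 (2.99 in GFP-off cells), the chemokine gene Pf4 (1.70) and Ms4a7 (1.37) were picked after their values were seen. None of the 15 passed between GFP-on and GFP-off cells.

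Among 17 measured further microglia genes, 7 were higher and 2 lower without overlap on the KO GFP-on arrays, the higher share being near that of all genes. In GFP-off cells 5 were more than 2-fold higher. Of those 5, Adgre1, encoding F4/80 (3.43 in GFP-on, at least 3.71-fold, and 1.96 in GFP-off cells), and Trem2 (1.0 and 1.05, picked after its value was seen) were well above background on both GFP-off arrays. The receptor genes P2ry12 (2.94 in GFP-off cells), P2ry13 (2.67) and Gpr34 (1.51), picked likewise, were not. In GFP-on cells both WT arrays were at background for these receptor genes, and the P2ry13 groups overlapped (0.077). KO GFP-on replicate 1 was also at background for P2ry12 and P2ry13. The place of P2ry12 among the 7 higher genes thus rests on background signals in part. Tmem119, a marker of mature microglia, gave 1.30, with overlapping GFP-on groups, and 0.46. The probe of the integrin gene Itgam went the other way (-2.58 and -0.28). So did that of Siglech (-1.86 and -0.27), picked after its value was seen. Levels over the 6 arrays were 5.54 to 9.58 for Itgam and 7.54 to 10.1 for Siglech. The highest level of the 10 genes was 3.36 (Csf1r). What the Itgam and Siglech probes detected was not tested. Olfml3, a secreted glycoprotein gene, fell by 2.05 in GFP-on against GFP-off cells, the only 1 of the 17 to pass.

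Among 16 phagocyte and lysosome genes, 12 were higher and none lower without overlap on the KO GFP-on arrays. More than 2-fold higher in the GFP-off pair were 5, of which 3 were well above background on both arrays. The cathepsin gene Ctss gave 3.49 and 1.87, the lysozyme gene Lyz1 2.86 and 1.65, and the cathepsin gene Ctsl 3.62 and 0.29. WT GFP-on replicate 2 was below the background limit for Ctss and Lyz1, so their GFP-on differences are inexact. Of 15 measured genes of ITAM and Syk signalling, 9 were higher and 1 lower. The phosphatase genes Ptpn6 (3.09, at least 3.57-fold, and 0.55) and Inpp5d (2.40, at least 2.24-fold, and 0.27) were the most different. In GFP-off cells 4 were more than 2-fold higher, of which 1 was well above background on both arrays. These 4 were picked after their values were seen: Btk (1.39), Fcgr3 (2.17), Fcgr2b (1.84) and Cd53 (1.48). The WT GFP-off array was at background for Fcgr3, Fcgr2b and Cd53, so their differences are inexact. Of 9 measured myeloid transcription factor genes, 4 were higher and 2 lower, again near the shares of all genes. Irf8, needed for microglial development, gave 2.77 (at least 2.21-fold) and 0.34, and Runx1 -1.78 and -0.88. Spi1, which encodes PU.1, was not well above background on enough arrays to be tested. None of these genes passed between GFP-on and GFP-off cells.

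Of 13 measured complement genes outside C1q, 6 were higher, near the share of all genes, and 5 lower without overlap on the KO GFP-on arrays. The complement regulator gene Cd55 was at least 1.43-fold higher there and differed by 1.1 in GFP-off cells. The 5 lower genes, picked after their values were seen, were C4b (-1.14 in GFP-on and -1.55 in GFP-off cells), C3 (-1.11 and -0.33), Cfp (-0.92 and -0.41), C3ar1 (-0.87 and -1.1) and Itgb2 (-0.86 and 0.13). For Itgb2, GFP-on replicate 1 of both labels was at background, so its GFP-on difference is inexact. Among 10 genes for ligands, 7 were higher and none lower, with Ccl2 (3.60, at least 4.30-fold, and 0.41), Ccl3 (2.43, at least 1.71-fold, and 1.55) and Cxcl12 (1.72 and 0.50) the most different. The ligands of the receptors above, looked at for that reason, gave 0.13 and 0.37 for Csf1, 0.38, with both WT GFP-on arrays at background, and 0.64 for Il34, and 0.95 and -0.64 for Cx3cl1.

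Among 11 measured genes of other leukocytes, 2 were higher and 6 lower without overlap on the KO GFP-on arrays, and the median in GFP-off cells was -0.25. The lower ones included the neutrophil genes Elane (-3.44), Ngp (-2.50) and S100a9 (-0.44) and the T cell gene Cd3e (-2.48). KO GFP-on replicate 1 was at background for Ngp, so its difference is inexact. Cd3e gave 1.40 and 4.35 on the WT GFP-on arrays, so its difference rests largely on WT replicate 2. The neutrophil gene S100a8 was higher (1.24), and Mpo differed by 1.84 with overlapping groups and WT GFP-on replicate 2 at background. Neutrophil genes thus did not share a direction. The neutrophil calcium-binding protein genes S100a8 and S100a9 fell by 3.12 and 2.33 in GFP-on against GFP-off cells, the 2 of 11 that passed in limma. None of 5 measured megakaryocyte genes was higher and 2 were lower without overlap.

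**Figure D4:**
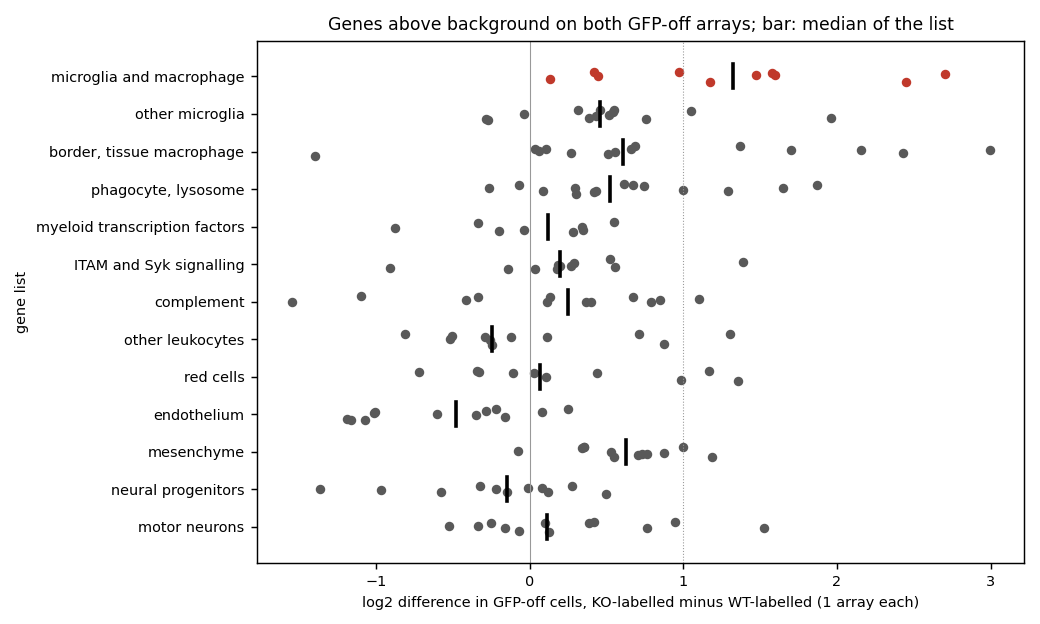
Each point is 1 gene well above background on both GFP-off arrays; the horizontal axis is its log2 difference in GFP-off cells between the KO and WT labels (1 array each), the vertical axis the gene list, and the black bar the median of the points. The microglia and macrophage genes (red), chosen with these values known, have the highest median, and the border macrophage gene Folr2 (2.99) lies beyond Mrc1 (2.70).

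The 6 members above background on all arrays (Cx3cr1, Csf1r, C1qb, C1qc, Fcer1g and Aif1) gave mean levels of 1.40 and 1.42 on the KO GFP-on arrays, 0.17 and -0.038 on the WT GFP-on arrays, and 1.24 and 0.18 on the KO and WT GFP-off arrays. Of 10134 genes above background on all arrays, the 5 non-members most like this mean by Pearson's r over the 6 arrays were Cdc42ep2 (0.993), an effector of the GTPase CDC42, Ddc (0.993), encoding aromatic amino acid decarboxylase, the purinergic receptor genes P2rx4 (0.985) and P2ry6 (0.979), and the receptor kinase gene Alk (0.980). Over 6 arrays, 138 genes reached an r above 0.9, so this order is a description only. Ddc gave 1.63 and 1.76 on the KO GFP-on arrays, -0.085 and -0.65 on the WT GFP-on arrays, and 1.38 and -0.48 on the KO and WT GFP-off arrays. P2ry6 gave -0.45 and -0.14, then -1.66 and -1.98, then -0.33 and -1.38. Both separated the labels in each fraction, as C1qc did. They were chosen for likeness to a mean that separates the labels, so this follows from the choice and adds no support.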

How the data were processed

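Per the labels, Cy3-labelled cRNA was hybridised to 1-colour Agilent arrays. Spot signals come from Agilent Feature Extraction 10.5.1.1, per the file headers (the submitters' processing notes name 9.1). The deposited files give an intensity per spot, background-subtracted and detrended within the array, not scaled between arrays; the deposited flags (other values) mark spots above background, saturated or irregular. No spot of the 10 genes was saturated. The authors' value table is in log2 and equals the values used here within 0.01 for 100% of probes.

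Log2 processed signals were averaged over unflagged spots, and the array's 75th percentile over probes was subtracted. Probes were named by RefSeq accession (assembly GRCm38.p6; the files name mm9): 26300 of 55681 matched. Genes with a probe well above background on at least 2 of 6 arrays were kept, the probe with the highest mean standing for the gene. GFP-on and GFP-off cells were compared with limma 3.58.1 in R 4.3.3 (additive model, 3 residual degrees of freedom), with Benjamini-Hochberg adjustment over 14917 genes and a threshold of 0.05. The fit was tested on simulated data. Members and lists were chosen with earlier results of these data known. Named genes were all members, from each list up to 3 with the largest GFP-on minus GFP-off and up to 3 with the largest GFP-on genotype difference, and the 5 genes most alike; others are marked as picked after their values were seen. Some genes that this rule takes are not reported here.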

Additional observations from a re-analysis of the deposited data

Results flagged for a closer look

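Opposite signs of the difference between genotype labels in the 2 fractions, with both GFP-on groups apart, were seen for the following genes of the lists that are reported here. In each the difference between fractions was not tested and rests on 1 GFP-off array per label, and values are given for GFP-on and then GFP-off cells. Among immune genes they were Batf3 (0.78 and -0.33), Cx3cl1 (0.95 and -0.64), Itgb2 (-0.86 and 0.13), S100a9 (-0.44 and 0.11), Cd53 (-0.39 and 1.48) and Gp6 (-2.01 and 0.16). Cd53 and Gp6 were not well above background on both GFP-off arrays, so their signs there compare background signals in part. Red cell genes were Hbb-b2 (1.57 and -0.72) and Slc4a1 (-0.40 and 0.11). Endothelial genes were Cdh5 (3.78 and -0.16), Tek (-1.28 and 0.25), Esam (0.70 and -1.02) and Cldn5 (2.45 and -1.16). Neural genes were Sox2 (2.17 and -0.15), Nes (-0.98 and 0.50), Hes5 (1.38 and -0.58), Fabp7 (2.98 and -0.22) and the neural crest gene Foxd3 (0.41 and -0.057). In GFP-on cells, both WT arrays and KO replicate 1 were at background for Tek and Cd53. So was replicate 1 of both labels for Itgb2. Both WT arrays were at background for Cdh5, and WT replicate 1 for Cldn5 and Sox2. These GFP-on differences are inexact, and those of Tek, Cd53 and Itgb2 compare background signals in part.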

How the results depend on the processing

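None of the 10 genes passed between GFP-on and GFP-off cells in limma under any alternative run, while all-gene calls ran from 0 to 1609; the smallest adjusted p was 0.0918, for Mrc1. The median GFP-on genotype difference was 2.51 with median scaling (0.98 over all genes), 1.05 with normexp (0.15), and 1.1 over the 6 genes above background on all arrays, of which 5 did not overlap. Leaving out 1 GFP-on array gave 1.38 (without WT replicate 2) to 2.07. The GFP-off median ran from 1.17 to 1.58. With the replicate number as a block, the GFP-on against GFP-off median was -0.38, with 0 of the 10 genes and 387 of all genes called; the replicate 1 arrays correlated at -0.28 in their deviations, so the numbers are not shown to pair samples. The crossed pairing, added after seeing the data, called 0 of the 10 genes and 1609 genes in all. Levels not well above background give bounds only.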
